A study of Mus musculus with 107 samples.

Results

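LL/2 and KLN205 are the lung cancer models of a series in which RNA from 12 mouse syngeneic tumor models was sequenced. LL/2, the Lewis lung carcinoma line, arose in a C57BL mouse, and KLN205 is a squamous cell carcinoma line from the lung of a DBA/2 mouse. Cells of either line were placed under the skin of the right flank of female mice aged 7 weeks, LL/2 in C57BL/6JCrl and KLN205 in DBA/2NCrl hosts, and treatment-naïve tumors were taken at about 100 mm3 without any drug. The comparison used the tumors that the labels name LL2-Base and KLN205-Base, 3 of each and thus 6 of the 107 tumors in the table, of which 35 were treatment-naïve. A second set of untreated tumors from the same models, 3 LL/2 and 3 KLN205 tumors of the no treatment (NT) group collected on day 8, did not enter the fit of the first comparison, though their direction was one condition for naming the 15 genes of largest difference in each model. In every comparison the cell line, the mouse strain and the distance of the strain from the reference genome go together, so that their contributions cannot be told apart.

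Expression was given as TPM, a share of all transcripts corrected for gene length whose sum is fixed within a library. Sequencing depth cannot be read from such values, and the study used more than 1 sequencing platform without saying which tumor was run on which, so counting error is unknown and a platform effect cannot be told apart from the model. Protein-coding genes took 49.2% to 54.4% of the TPM in the LL/2 tumors and 39.6% to 42.3% in the KLN205 tumors. The non-coding RNA Rn7s1, the RNA of the signal recognition particle, alone took 9.90% to 12.4% in LL/2 and 16.8% to 17.6% in KLN205. The same 5 non-coding genes, Rn7s1, Rn7sk, Gm26917, Rn7s2 and Rmrp, had the highest mean TPM in both models. In the day 8 tumors the protein-coding shares were 49.97% to 51.3% in LL/2 and 50.7% to 52.7% in KLN205. Over 13274 protein-coding genes, Pearson's r of log2(TPM + 1) across genes was 0.988 to 0.991 between LL/2 tumors, 0.977 to 0.987 between KLN205 tumors and 0.802 to 0.826 between the models, and each of the 6 tumors was most like another tumor of its own model.

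As background, squamous epithelium is a layered tissue whose basal cells carry the keratins Krt5 and Krt14 under the control of the transcription factor p63 and are held together by desmosomes and to the basement membrane by hemidesmosomes. Simple epithelium, such as that of airways and glands, carries Krt8, Krt18 and Krt19 with tight junctions and E-cadherin. Carcinoma cells that have taken a mesenchymal form lose these genes and carry vimentin, N-cadherin and transcription factors of the Zeb, Snail and Twist families. The lung epithelium itself is known for the transcription factor Nkx2-1 and for surfactant proteins.

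A total of 16366 genes had a mean TPM of at least 1 over the 6 tumors and were tested by limma, with p-values adjusted by the Benjamini-Hochberg method. At an adjusted p under 0.05, 5514 genes (33.7%) were higher in LL/2 and 3641 (22.2%) were higher in KLN205. With a log2 difference of at least 1 as well, meaning a difference of at least 1 in log2(TPM + 1), 1800 genes (11%) were higher in LL/2 and 2019 (12.3%) in KLN205. On this scale the difference of a weakly expressed gene comes out smaller than its ratio of TPM. In 6298 genes (38.5%) the lowest LL/2 tumor stood above the highest KLN205 tumor, and the reverse held for 4189 genes (25.6%).

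The balance between the directions depended on the scaling. When each tumor was rescaled to the sum of its protein-coding genes, 3485 genes (21.2%) were higher in LL/2 and 5714 (34.8%) in KLN205, and the median log2 difference over all genes moved from 0.13 to -0.16. Of the genes called on the deposited TPM, 3420 of the 5514 higher in LL/2 and all 3641 of the 3641 higher in KLN205 were called the same way both after this rescaling and after rescaling by the upper quartile, and 0 were called the other way after the first. Among the larger differences, 1743 of 1800 and 2019 of 2019 were called the same way under both. A single gene named below was called the same way under both rescalings unless stated otherwise. Counts of list members after protein-coding rescaling stand against the 21.2% and 34.8% of all genes given here.

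**Figure D1:**
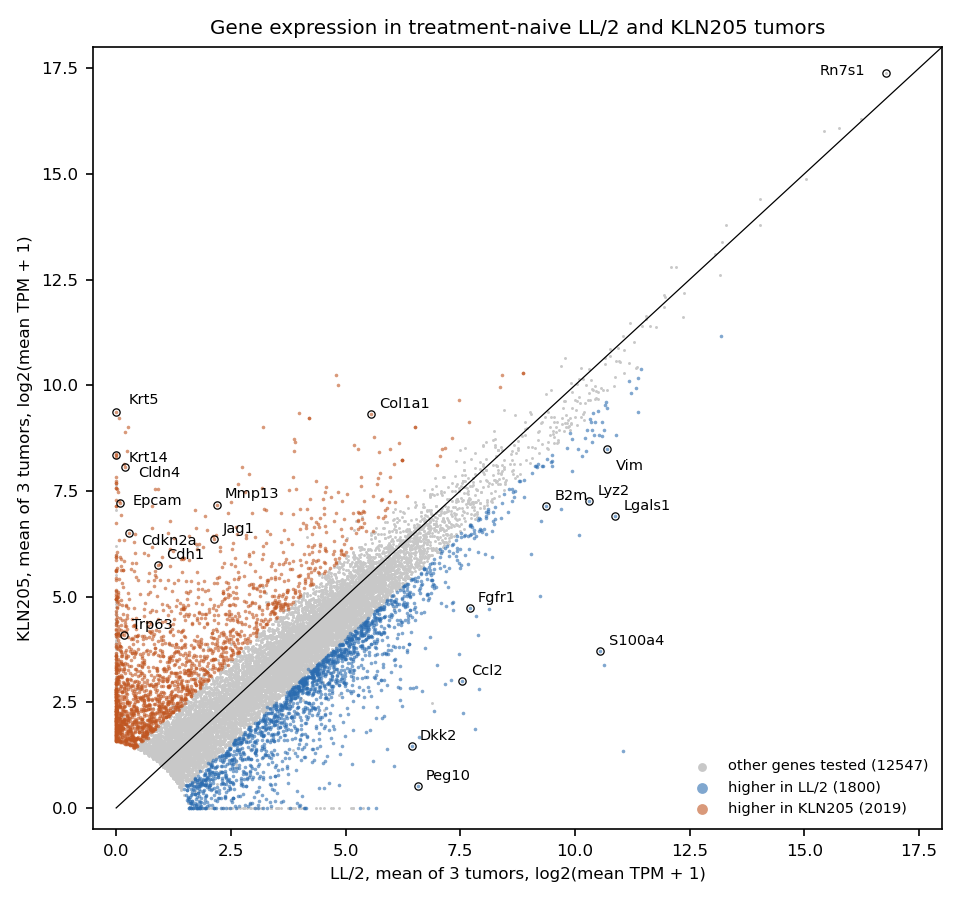
Mean expression of the 16366 genes tested in 3 KLN205 tumors (vertical axis) against 3 LL/2 tumors (horizontal axis), each as log2(mean TPM + 1), with the line of equal values. Colored points are the 1800 genes higher in LL/2 and the 2019 higher in KLN205 at an adjusted p under 0.05 and a log2 difference of at least 1, and Krt5, Krt14, Epcam and Cldn4 lie along the left edge, where LL/2 is at or near 0.

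Most of the tested genes of squamous and basal epithelium were higher in KLN205. Krt5, the type II keratin of basal cells (ENSMUSG00000061527, GRCm38 chromosome 15, 101707070 to 101712898, minus strand), was listed at 864, 467 and 647 TPM in the KLN205 tumors and 0 TPM in each LL/2 tumor (adjusted p = 2.47e-07). Its partner Krt14 was listed at 370.4, 256 and 342 TPM in the KLN205 tumors and 0 TPM in each LL/2 tumor (adjusted p = 1.01e-07). Both belong to the dividing basal layer, and every KLN205 tumor held them at over 200 TPM. Krt6a, a keratin of regenerating and hyperproliferative epidermis, was listed at 430.0, 255 and 309 TPM in the KLN205 tumors and 0 TPM in each LL/2 tumor (adjusted p = 2.32e-07). Krt17, induced in the same settings, was listed at 198, 148 and 214 TPM in the KLN205 tumors and 0.06, 0 and 0 TPM in the LL/2 tumors (adjusted p = 1.47e-07). The groups did not overlap for any of these 4 keratins, and KLN205 tumor 2 was the lowest of its group in each. Krt4, a keratin of the upper layers of moist stratified epithelium, was listed at 74.7, 35.8 and 31.7 TPM in the KLN205 tumors and 0 TPM in each LL/2 tumor. Its partner Krt13 had 57.9, 12.5 and 29.97 TPM in the KLN205 tumors and 0, 0.09 and 0 TPM in the LL/2 tumors. Of the 11 keratins in the list, 10 passed the filter on low TPM, 9 of the 10 were higher in KLN205 and 0 in LL/2. Over all genes tested the shares were 22.2% and 33.7%. Krt10, a keratin of cornifying epidermis, was not called (1.06, 0.65 and 0.81 TPM in the LL/2 tumors and 2.36, 0.68 and 1.19 TPM in the KLN205 tumors, adjusted p = 0.342), and Krt1, its partner, was at or near 0 in all 6 tumors and was not tested. All 10 had a mean under 1 TPM in LL/2 and passed the filter through KLN205 alone, so that they could be called in 1 direction only and nothing is read from the count against the share of all genes. Of the 10, 6 were listed at 0 in every LL/2 tumor. Their log2 differences depend on the constant added to TPM. The summed level of the 11 keratins was 1192 to 2050.4 TPM in KLN205 and 0.74 to 1.17 TPM in LL/2.

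The regulators and adhesion genes of this epithelium went the same way. Trp63, which encodes the basal cell regulator p63, had 22.2, 10.2 and 15.8 TPM in the KLN205 tumors and 0.11, 0.25 and 0 TPM in the LL/2 tumors (log2 difference -3.88 ± 0.26 SE, adjusted p = 2.98e-05). Sox2, a transcription factor of squamous epithelium and of stem cells, had 13.3, 8.97 and 9.28 TPM in the KLN205 tumors and 0, 0.07 and 0 TPM in the LL/2 tumors (log2 difference -3.47 ± 0.18 SE, adjusted p = 8.95e-06). For both genes the lowest KLN205 tumor stood far above the highest LL/2 tumor. Dsp, the plakin that anchors keratins to desmosomes, was listed at 38.1, 29.1 and 34.3 TPM in the KLN205 tumors and 0 TPM in each LL/2 tumor (adjusted p = 4.47e-07). Dsg3, a desmosomal cadherin of basal cells, was listed at 22.3, 5.91 and 13.1 TPM in the KLN205 tumors and 0 TPM in each LL/2 tumor (adjusted p = 0.000254). Itgb4, the integrin chain of hemidesmosomes, had 202, 163 and 189 TPM in the KLN205 tumors and 0.92, 1.06 and 0.67 TPM in the LL/2 tumors (log2 difference -6.62 ± 0.12 SE, adjusted p = 1.12e-07). Lamb3 and Lama3, laminin chains of the basement membrane under such epithelium, had log2 differences of -5.89 and -5.47. Perp, a p63 target in desmosomes, had 169.9, 131 and 158 TPM in KLN205 and 0.04 TPM in each LL/2 tumor. Of the 25 genes in the list of other squamous and basal genes, 21 were tested, 20 were higher in KLN205 and 0 in LL/2, with a median log2 difference of -4.20 (0.13 over all genes tested). Of the 21, 14 had a mean under 1 TPM in LL/2, 4 of them at 0 in every LL/2 tumor, and passed the filter through KLN205 alone, so that nothing is read from this count or median either. Tfap2a, a transcription factor of skin, was the member not called (10.5, 12.97 and 11.1 TPM in the LL/2 tumors and 11.5, 9.72 and 10.5 TPM in the KLN205 tumors, adjusted p = 0.438). Dsc3, Ivl, Sprr1b and Sprr3, which belong to desmosomes or to the cornified envelope, stayed under the filter with at most 1.74 TPM in any of the 6 tumors.

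Promoter windows of these genes are shown because AP-1, a dimer of Jun and Fos proteins, and the grainyhead factor Grhl2 are known regulators of squamous and epithelial genes, and because the members moved together. The windows come from RefSeq on GRCm38.p6 and run from 250 bases before the start of the gene, and the bases before the start are printed. Capitals mark matches to TGANTCA, the AP-1 motif, or to AACCNGTT, the grainyhead motif, searched on both strands from 250 bases before to 50 bases after the start.
Krt5: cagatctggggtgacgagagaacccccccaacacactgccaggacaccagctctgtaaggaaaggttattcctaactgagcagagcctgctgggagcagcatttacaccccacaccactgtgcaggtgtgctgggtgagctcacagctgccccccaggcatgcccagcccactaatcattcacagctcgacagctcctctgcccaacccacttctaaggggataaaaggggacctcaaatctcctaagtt
Krt13: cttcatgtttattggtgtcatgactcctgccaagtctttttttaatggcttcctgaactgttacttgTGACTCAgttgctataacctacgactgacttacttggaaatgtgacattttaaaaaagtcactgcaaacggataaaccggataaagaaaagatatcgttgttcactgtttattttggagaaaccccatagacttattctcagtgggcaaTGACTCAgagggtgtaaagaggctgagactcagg
Sprr1a: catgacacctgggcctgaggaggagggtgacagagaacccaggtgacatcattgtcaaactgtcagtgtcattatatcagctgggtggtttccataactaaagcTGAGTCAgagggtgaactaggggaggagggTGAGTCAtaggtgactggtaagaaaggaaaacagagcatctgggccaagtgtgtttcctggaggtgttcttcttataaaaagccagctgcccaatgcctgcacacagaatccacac
Cldn4: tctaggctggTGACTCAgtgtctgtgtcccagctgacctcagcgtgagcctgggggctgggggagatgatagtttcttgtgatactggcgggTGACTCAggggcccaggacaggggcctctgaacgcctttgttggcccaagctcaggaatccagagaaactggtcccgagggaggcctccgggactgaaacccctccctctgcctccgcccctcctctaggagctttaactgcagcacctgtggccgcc
Sfn: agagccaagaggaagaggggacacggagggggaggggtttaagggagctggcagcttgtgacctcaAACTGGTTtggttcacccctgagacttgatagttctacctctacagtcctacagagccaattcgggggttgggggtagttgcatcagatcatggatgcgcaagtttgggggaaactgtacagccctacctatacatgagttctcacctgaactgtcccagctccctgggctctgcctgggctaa
S100a4: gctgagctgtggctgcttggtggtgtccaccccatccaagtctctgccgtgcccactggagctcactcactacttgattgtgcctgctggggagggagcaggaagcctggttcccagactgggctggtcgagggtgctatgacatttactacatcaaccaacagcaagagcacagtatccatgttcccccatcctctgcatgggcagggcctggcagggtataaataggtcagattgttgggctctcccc
These lie at chr15:101712906-101713155, minus strand (Krt5), chr11:100120578-100120827, minus strand (Krt13), chr3:92485882-92486131, minus strand (Sprr1a), chr5:134946935-134947184, minus strand (Cldn4), chr4:133602169-133602418, minus strand (Sfn) and chr3:90603520-90603769, plus strand (S100a4). Krt13, Sprr1a and Cldn4 each hold 2 matches to the AP-1 motif, Sfn holds 1 match to the grainyhead motif, and Krt5 and S100a4 hold none of either. Krt13 has a second window, searched at chr11:100121517-100121816, minus strand, which holds 1 match to the AP-1 motif and is not printed. Of the 51 squamous and epithelial list members that were higher in KLN205, 24 had a window, and 5 of the 24 (20.8%) held the AP-1 motif and 3 (12.5%) the grainyhead motif. Over the tested genes with a window, 10176 in number, the shares were 6.63% and 2.26%, and over all 27025 genes with a window they were 8.97% and 2.35%. Of the 15 genes of largest difference toward KLN205 named below, 10 had a window, and 1 (10%) held the AP-1 motif and 0 the grainyhead motif. For the 11 mesenchymal list members higher in LL/2, 8 had a window, and 1 (12.5%) held the AP-1 motif and 0 the grainyhead motif. These are counts of letters in short windows of few genes, and no test was made of them. Sprr1a, a cornified envelope gene, had 43.8, 6.84 and 14.2 TPM in the KLN205 tumors and 0, 0.41 and 0.61 TPM in the LL/2 tumors (log2 difference -3.73 ± 0.58 SE, adjusted p = 0.00144), and Sfn, the stratifin gene of stratified epithelium, had 87.2, 73.4 and 86.4 TPM in the KLN205 tumors and 1.55, 1.16 and 1.52 TPM in the LL/2 tumors (log2 difference -5.11 ± 0.12 SE, adjusted p = 2.7e-07).

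Simple epithelial and junction genes were also higher in KLN205, though LL/2 kept Krt8 and Krt18. Krt8 had 404, 617 and 526 TPM in the KLN205 tumors and 3.27, 15.3 and 6.05 TPM in the LL/2 tumors (log2 difference -6.01 ± 0.45 SE, adjusted p = 4.65e-05), and Krt18 had 308, 403 and 359 TPM in the KLN205 tumors and 32.9, 41.05 and 38.9 TPM in the LL/2 tumors (log2 difference -3.21 ± 0.13 SE, adjusted p = 3.03e-06). LL/2 tumor 2 was the highest of its group for Krt8 and Krt18 and still under every KLN205 tumor. Krt19, a keratin of simple and glandular epithelium, had 591, 478 and 466 TPM in the KLN205 tumors and 0.06, 0.17 and 0.36 TPM in the LL/2 tumors (log2 difference -8.74 ± 0.14 SE, adjusted p = 7.44e-08). Krt7, a keratin of ducts and airways, had 501, 459.7 and 467 TPM in the KLN205 tumors and 0.07, 0.27 and 0.11 TPM in the LL/2 tumors (log2 difference -8.70 ± 0.10 SE, adjusted p = 3.1e-08). LL/2 was near 0 for both. Epcam, an adhesion molecule of epithelial cells, had 147, 145 and 151 TPM in the KLN205 tumors and 0.13, 0 and 0.04 TPM in the LL/2 tumors (log2 difference -7.14 ± 0.09 SE, adjusted p = 3.68e-08). Cdh1, which encodes E-cadherin, had 53.8, 49.7 and 54.7 TPM in the KLN205 tumors and 0.66, 0.9 and 1.09 TPM in the LL/2 tumors (log2 difference -4.84 ± 0.12 SE, adjusted p = 3.58e-07). The KLN205 tumors lay within a narrow range for both. Cldn3, a claudin of tight junctions, was listed at 205, 215 and 216 TPM in the KLN205 tumors and 0 TPM in each LL/2 tumor (adjusted p = 3.05e-08). Cldn4, a related claudin, had 249, 266 and 289 TPM in the KLN205 tumors and 0.05, 0.2 and 0.19 TPM in the LL/2 tumors (log2 difference -7.87, adjusted p = 3.68e-08). The regulators that maintain these junctions were likewise near 0 in LL/2. Esrp1, a splicing factor of epithelial cells, was listed at 32.2, 27.2 and 29.3 TPM in the KLN205 tumors and 0 TPM in each LL/2 tumor (adjusted p = 2.89e-07). Grhl2, a factor that maintains the epithelial state, had 27.1, 20.2 and 20.9 TPM in the KLN205 tumors and 0.21, 0.11 and 0.19 TPM in the LL/2 tumors (log2 difference -4.33, adjusted p = 1.44e-06). Of the 23 members, 22 were tested and 22 were higher in KLN205 (22.2% of all genes tested), with a median log2 difference of -4.89. Of the 22, 17 had a mean under 1 TPM in LL/2, 2 of them at 0 in every LL/2 tumor, and could pass the filter and be called through KLN205 alone, so that this count too is a description. Ovol2, a zinc finger factor of epithelial cells and the member under the filter, was listed at 1.65, 2.44 and 1.51 TPM in the KLN205 tumors and 0 TPM in each LL/2 tumor.

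The lung label was checked against lung genes, with Nkx2-1, Sftpc and Scgb1a1 as the defining ones. Nkx2-1, the regulator of lung identity, and Sftpa1 and Sftpc, which encode surfactant proteins, were listed at 0 in all 6 tumors. Scgb1a1, the club cell secretory protein of the airways, was above 1 TPM in KLN205 alone, with 11.8, 8.02 and 9.33 TPM in the KLN205 tumors and 0, 0.21 and 0 TPM in the LL/2 tumors (log2 difference -3.31 ± 0.18 SE, adjusted p = 1.18e-05). Foxa1, a transcription factor of airway and gland epithelium, had 15.6, 14.9 and 16.9 TPM in the KLN205 tumors and 0.27, 0.47 and 0.37 TPM in the LL/2 tumors (log2 difference -3.62 ± 0.12 SE, adjusted p = 1.61e-06). Hopx, a gene of alveolar type 1 cells that other tissues also use, went the other way, with 19.9, 17.4 and 18.8 TPM in the LL/2 tumors and 6.39, 3.3 and 4.06 TPM in the KLN205 tumors (log2 difference 1.85 ± 0.20 SE, adjusted p = 0.00024). Of the 14 members, 7 were tested, 3 were higher in KLN205 and 2 in LL/2 (22.2% and 33.7% of all genes). Of the 7, 3 passed the filter through KLN205 alone and 1 through LL/2 alone. The second of the 2 higher in LL/2, Napsa, an aspartic protease of alveolar cells, had a log2 difference of 0.73 (adjusted p = 0.0394) and was not called after either rescaling or in 5 of the 6 fits that left out 1 tumor.

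Most mesenchymal genes were higher in LL/2, but KLN205 also held them. Vim, the intermediate filament of mesenchymal cells, had 1483, 1853 and 1655 TPM in the LL/2 tumors and 300.2, 429.7 and 342 TPM in the KLN205 tumors (log2 difference 2.23 ± 0.15 SE, adjusted p = 2.56e-05). Cdh2, which encodes N-cadherin, had 5.22, 7.56 and 6.96 TPM in the LL/2 tumors and 0.25, 1.31 and 0.85 TPM in the KLN205 tumors (log2 difference 2.10 ± 0.25 SE, adjusted p = 0.000412). S100a4, a calcium-binding protein also called fibroblast-specific protein (ENSMUSG00000001020, chromosome 3, 90603771 to 90606045, plus strand), had 1548, 1395 and 1561 TPM in the LL/2 tumors and 14.3, 10.2 and 12.01 TPM in the KLN205 tumors, which made LL/2 123-fold higher on the mean (log2 difference 6.84 ± 0.12 SE, adjusted p = 1.03e-07). The groups lay wide apart for all 3 genes. Among the transcription factors, Zeb1 had 41.03, 43.1 and 42.4 TPM in the LL/2 tumors and 4.96, 9.77 and 8.04 TPM in the KLN205 tumors (log2 difference 2.37 ± 0.21 SE, adjusted p = 9.22e-05). Snai1, Twist1, Twist2 and Prrx1 had log2 differences of 1.93, 1.97, 1.78 and 1.99. Snai2, the Slug gene that basal epithelial cells also use, was higher in KLN205 instead (6.88, 8.15 and 6.75 TPM in the LL/2 tumors and 12.7, 10.7 and 13.1 TPM in the KLN205 tumors, log2 difference -0.67, adjusted p = 0.00278). Cdh11, a cadherin of mesenchymal cells, was also higher in KLN205 (8.55, 22.01 and 16.4 TPM in the KLN205 tumors and 0.5, 0.33 and 0.26 TPM in the LL/2 tumors, log2 difference -3.52, adjusted p = 9.39e-05), as was Tgfb2 (log2 difference -1.43, adjusted p = 0.00117). In all, 15 of the 16 members were tested, 11 (73.3%) were higher in LL/2 and 3 (20%) in KLN205 (33.7% and 22.2% of all genes). Cdh2 passed the filter through LL/2 alone and Cdh11 through KLN205 alone. The median log2 difference was 1.80. After protein-coding rescaling the counts were 10 and 4.

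**Figure D2:**
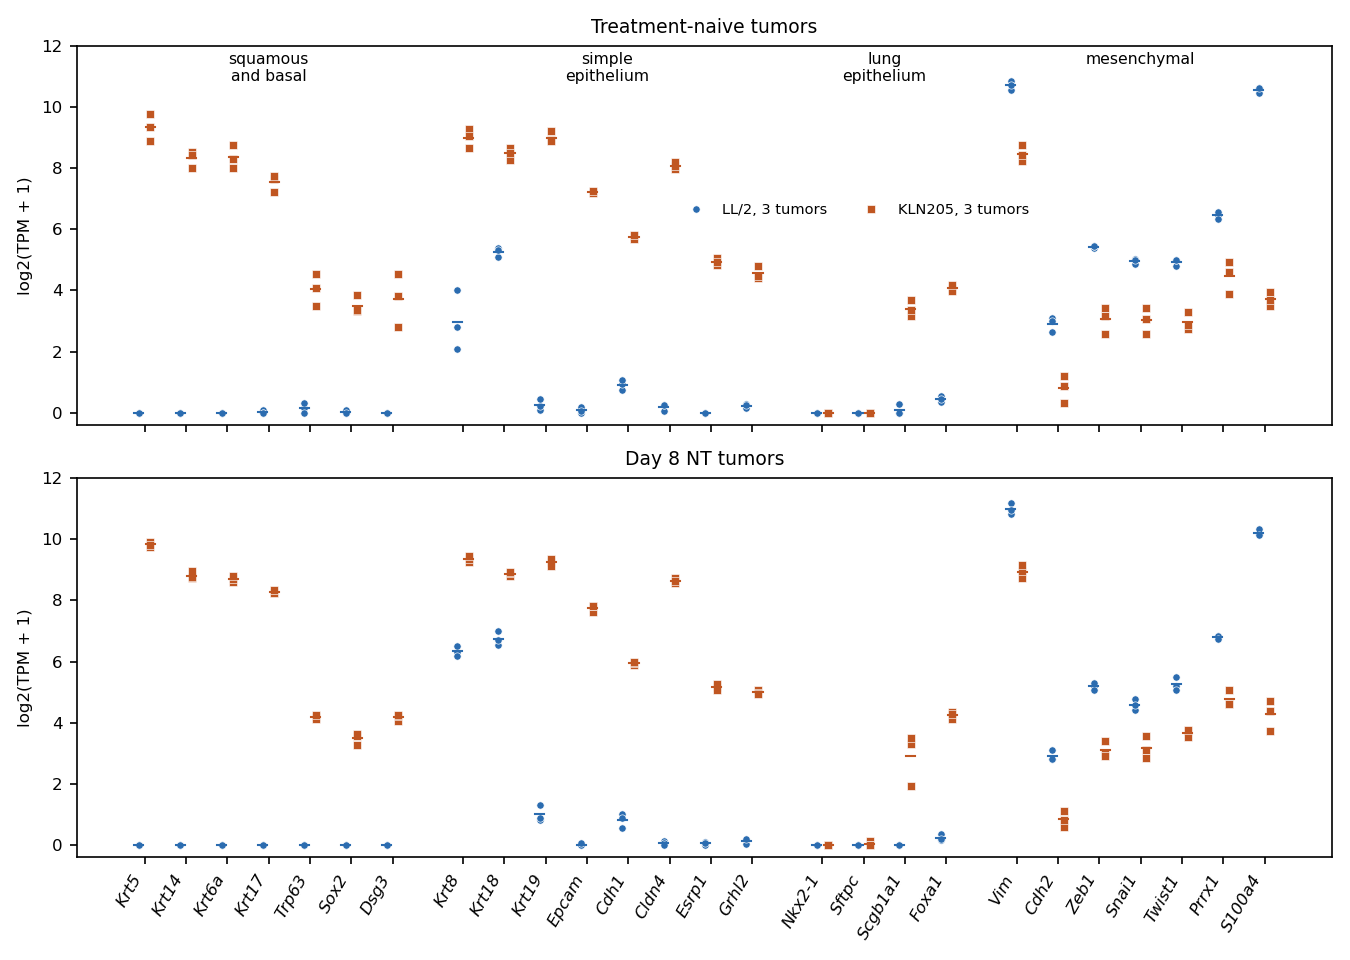
Expression of lineage genes as log2(TPM + 1) in each treatment-naïve tumor (upper panel) and each day 8 NT tumor (lower panel), with points for 3 tumors of each model and a bar at their mean. The squamous and simple epithelial genes drawn separate the models in both panels with KLN205 on top, and Nkx2-1 stays at 0. The mesenchymal genes drawn separate them with LL/2 on top. Snai2, Cdh11 and Tgfb2, mesenchymal list members higher in KLN205 in the treatment-naïve tumors, are not drawn.

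Among called protein-coding genes whose groups did not overlap and whose direction was the same on day 8, the 15 with the largest log2 difference toward KLN205 were in large part those already given, namely Krt5, Krt19, Krt7, Krt6a, Krt14, Cldn4, Cldn3, Krt17, Perp and Epcam. The others were Wfdc2, S100a14, Ltf, Cldn6 and Sprr2a2, an order that depends on the constant added to TPM where LL/2 is at 0. Wfdc2, a secreted protein of glandular and airway epithelium, had 634, 569 and 582 TPM in the KLN205 tumors and 0.12, 0 and 0 TPM in the LL/2 tumors (log2 difference -9.16 ± 0.09 SE, adjusted p = 3.05e-08). Ltf, which encodes the iron-binding protein lactotransferrin, was listed at 338, 131 and 142 TPM in the KLN205 tumors and 0 TPM in each LL/2 tumor (adjusted p = 5.06e-06), with tumor 1 the highest. Cldn6, a claudin of embryonic epithelium, was listed at 132, 168 and 167 TPM in the KLN205 tumors and 0 TPM in each LL/2 tumor (adjusted p = 9.26e-08). S100a14, an S100 protein of epithelia, had 352, 341 and 346 TPM in the KLN205 tumors and 0.24, 0.27 and 0 TPM in the LL/2 tumors (log2 difference -8.22, adjusted p = 3.8e-08). Sprr2a2 belongs to a cluster of near-identical small proline-rich genes, so its level is uncertain.

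The 15 with the largest log2 difference toward LL/2 under the same conditions were of more mixed kinds. After S100a4 came Peg10, a paternally expressed imprinted gene derived from a retrotransposon, with 86.7, 94.7 and 101 TPM in the LL/2 tumors and 0.29, 0.55 and 0.44 TPM in the KLN205 tumors (log2 difference 6.06 ± 0.11 SE, adjusted p = 1.12e-07). Rhox2g, Rhox2h and Rhox2d, homeobox genes of the X chromosome that are best known from germ cells and placenta, were listed at 0 in every KLN205 tumor and at 34.4 to 54.8 TPM in LL/2. They are near-identical copies among which reads can be split, so their single levels are uncertain, as is that of the predicted gene Gm21887. Dkk2, a secreted modulator of Wnt signaling, had 76.7, 96.3 and 84.9 TPM in the LL/2 tumors and 1.02, 2.65 and 1.62 TPM in the KLN205 tumors (log2 difference 5.01 ± 0.21 SE, adjusted p = 4.08e-06). Nptx1, a secreted pentraxin of neurons, had 48.95, 88.7 and 59.7 TPM in the LL/2 tumors and 0.65, 1.35 and 0.94 TPM in the KLN205 tumors (log2 difference 5.05, adjusted p = 5.69e-06). Its membrane-bound relative Nptxr had 51.3, 68.7 and 56.8 TPM in the LL/2 tumors and 0.94, 2.1 and 1.91 TPM in the KLN205 tumors (log2 difference 4.52, adjusted p = 4.92e-06). Ccl2, the chemokine that draws monocytes, had 160.3, 221 and 177 TPM in the LL/2 tumors and 8.11, 5.48 and 7.53 TPM in the KLN205 tumors (log2 difference 4.54 ± 0.17 SE, adjusted p = 2.29e-06). Il1rl1, the receptor of interleukin 33, had 65.7, 124 and 97.2 TPM in the LL/2 tumors and 1.82, 2.32 and 2.4 TPM in the KLN205 tumors (log2 difference 4.88 ± 0.22 SE, adjusted p = 5.45e-06). On the mean LL/2 was 26.4-fold higher for Ccl2 and 43.9-fold higher for Il1rl1. Igfbp4, which binds insulin-like growth factors, had 574, 617 and 613 TPM in the LL/2 tumors and 15.9, 52.9 and 25.8 TPM in the KLN205 tumors (log2 difference 4.37, adjusted p = 8.38e-05). Ptn, the growth factor pleiotrophin, had 53.8, 36.1 and 52.1 TPM in the LL/2 tumors and 0.84, 1.62 and 1.01 TPM in the KLN205 tumors (log2 difference 4.48, adjusted p = 4.79e-06). KLN205 tumor 2 was the highest of its group for both. Lum, the matrix proteoglycan lumican, had 146, 145 and 139 TPM in the LL/2 tumors and 3.77, 12.8 and 3.36 TPM in the KLN205 tumors (log2 difference 4.45, adjusted p = 0.000118). Lyz1, a lysozyme whose sequence resembles Lyz2, had 29.5, 21.7 and 32.2 TPM in the LL/2 tumors and 0.24, 0.95 and 0.19 TPM in the KLN205 tumors (log2 difference 4.32, adjusted p = 1.16e-05), and reads may be split between the pair.

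Genes of growth control separated the models at the Cdkn2 locus. Cdkn2a, which encodes the tumor suppressors p16 and p19Arf (ENSMUSG00000044303, chromosome 4, 89274471 to 89294653, minus strand), had 91.5, 85.4 and 93.3 TPM in the KLN205 tumors and 0.22, 0.09 and 0.32 TPM in the LL/2 tumors (log2 difference -6.24 ± 0.11 SE, adjusted p = 1.01e-07). Its neighbor Cdkn2b, which encodes p15, had 37.2, 40.2 and 45.02 TPM in the KLN205 tumors and 0.2, 0.66 and 0.32 TPM in the LL/2 tumors (log2 difference -4.92 ± 0.15 SE, adjusted p = 1.07e-06). Both genes were near 0 in every LL/2 tumor and above 35 TPM in every KLN205 tumor. Trp53 itself was not called (87.4, 97.2 and 91.2 TPM in the LL/2 tumors and 74.8, 82.2 and 88.6 TPM in the KLN205 tumors, adjusted p = 0.151). Several targets of p53 were higher in KLN205. Mdm2, whose product degrades p53, had 175, 151 and 172 TPM in the KLN205 tumors and 41.1, 58.2 and 43.2 TPM in the LL/2 tumors (log2 difference -1.80 ± 0.14 SE, adjusted p = 5.69e-05). Cdkn1a, which encodes the cell cycle inhibitor p21, had 127, 136 and 138 TPM in the KLN205 tumors and 59.4, 76.6 and 65.01 TPM in the LL/2 tumors (log2 difference -0.99 ± 0.11 SE, adjusted p = 0.00023). Ccng1 and Trp53inp1, further p53 targets, had log2 differences of -1.50 and -2.63. Of the 12 members of the p53 and Cdkn2 list, 12 were tested, 9 (75%) were higher in KLN205 and 0 in LL/2 (22.2% and 33.7% of all genes). The median log2 difference was -0.89. The 2 Cdkn2 genes passed the filter through KLN205 alone.

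Of 20 cell cycle genes, 15 were higher in LL/2 in the treatment-naïve tumors (33.7% of all genes), and 8 on day 8 (24.6% of all genes). Mki67, the proliferation marker Ki-67, had 48.02, 53.9 and 50.4 TPM in the LL/2 tumors and 25.4, 22.6 and 25.7 TPM in the KLN205 tumors (log2 difference 1.02 ± 0.09 SE, adjusted p = 9.74e-05). Ccna2, a cyclin of S phase and mitosis, had 53.9, 51.3 and 51.6 TPM in the LL/2 tumors and 15.4, 18.8 and 16.7 TPM in the KLN205 tumors (log2 difference 1.57 ± 0.09 SE, adjusted p = 1.77e-05), and the mitotic cyclin Ccnb2 had a log2 difference of 1.46. Mcm6 and Mcm3, helicase subunits that open DNA for replication, had log2 differences of 1.83 and 1.42. The D-type cyclins went the other way, with Ccnd2 at 141, 150.4 and 168 TPM in the KLN205 tumors and 35.4, 47.7 and 41.2 TPM in the LL/2 tumors (log2 difference -1.87 ± 0.12 SE, adjusted p = 2.78e-05) and Ccnd1 at a log2 difference of -0.64. In the treatment-naïve tumors 2 members were higher in KLN205 and the median log2 difference was 0.78, and after protein-coding rescaling 12 were higher in LL/2 and 4 in KLN205. Cdk1, the mitotic kinase, had a log2 difference of 0.27 (adjusted p = 0.0212) that turned to -0.05 after that rescaling, so no direction is given for it.

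Single oncogenes differed in either direction. Hras, which encodes a small GTPase of growth factor signaling, had 58.3, 61.8 and 71.2 TPM in the KLN205 tumors and 29.98, 28.6 and 31.4 TPM in the LL/2 tumors (log2 difference -1.06 ± 0.10 SE, adjusted p = 0.000118). Myc, a transcription factor of growth genes, had 247, 369 and 271 TPM in the LL/2 tumors and 106, 111 and 111 TPM in the KLN205 tumors (log2 difference 1.41 ± 0.15 SE, adjusted p = 0.000203). For both genes the groups did not overlap. The receptor tyrosine kinase Axl was higher in LL/2 (149, 162 and 145 TPM in the LL/2 tumors and 61.6, 69.5 and 68.5 TPM in the KLN205 tumors, log2 difference 1.18, adjusted p = 3.46e-05). The receptor Erbb3, which epithelial cells use, was higher in KLN205 (17.7, 12.4 and 14.6 TPM in the KLN205 tumors and 0.25, 0.22 and 0.3 TPM in the LL/2 tumors, log2 difference -3.65, adjusted p = 3.81e-06), as was its partner Erbb2 with a log2 difference of -1.31. Igf2r, the receptor that clears insulin-like growth factor 2, had a log2 difference of 2.05 (adjusted p = 9.68e-06). The epidermal growth factor receptor Egfr was not called (17.9, 26.5 and 19.7 TPM in the LL/2 tumors and 19.4, 19.5 and 19 TPM in the KLN205 tumors, adjusted p = 0.504). Over the list of 19 receptors and oncogenes, 17 were tested, 6 (35.3%) were higher in LL/2 and 4 (23.5%) in KLN205, close to the 33.7% and 22.2% of all genes. After protein-coding rescaling the counts were 5 and 10 (21.2% and 34.8% of all genes).

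Notch ligands and receptors, which act between neighboring cells and drive differentiation in squamous epithelium, were mostly higher in KLN205. Jag1, a ligand (ENSMUSG00000027276, chromosome 2, 137081456 to 137116644, minus strand), had 73.3, 78.97 and 91.96 TPM in the KLN205 tumors and 3.53, 3.3 and 3.41 TPM in the LL/2 tumors (log2 difference -4.22 ± 0.11 SE, adjusted p = 4.47e-07). The related ligand Jag2 had 42.1, 36.05 and 44.6 TPM in the KLN205 tumors and 0.93, 1.41 and 1.26 TPM in the LL/2 tumors (log2 difference -4.25 ± 0.13 SE, adjusted p = 1.08e-06). The receptor Notch1 had 74.9, 50.6 and 70.5 TPM in the KLN205 tumors and 7.95, 6.76 and 6.06 TPM in the LL/2 tumors (log2 difference -3.05 ± 0.17 SE, adjusted p = 1.21e-05). The receptor Notch2 went the other way, with 77.7, 87.2 and 85.5 TPM in the LL/2 tumors and 24.8, 24.8 and 24.2 TPM in the KLN205 tumors (log2 difference 1.72 ± 0.08 SE, adjusted p = 5.26e-06). The models did not overlap for any of these 4 genes. Among the targets, Hes1 had 45.1, 43.7 and 40.99 TPM in the KLN205 tumors and 7.67, 11.2 and 11.2 TPM in the LL/2 tumors (log2 difference -2.02, adjusted p = 4.16e-05), and Heyl and Nrarp had log2 differences of -2.02 and -1.47. Of 12 members tested, 8 (66.7%) were higher in KLN205 and 1 in LL/2 (22.2% and 33.7% of all genes). The median log2 difference was -1.89, and 2 of the 12 passed the filter through KLN205 alone.

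The treated tumors that were sequenced received lenvatinib, which inhibits receptors of VEGF, FGF and PDGF. The ligands of these receptors differed in both directions before any treatment. Vegfa had 143, 72.2 and 109 TPM in the KLN205 tumors and 39.1, 80.3 and 50.6 TPM in the LL/2 tumors (log2 difference -0.93 ± 0.32 SE, adjusted p = 0.0410), and KLN205 tumor 2 lay under LL/2 tumor 2, so that the groups overlapped. This call was lost in 4 of the 6 fits that left out 1 tumor, where the adjusted p ranged from 0.0162 to 0.122. Vegfd, a ligand that acts on lymphatic vessels, had 20.1, 19.1 and 17.9 TPM in the LL/2 tumors and 1.62, 1.64 and 1.07 TPM in the KLN205 tumors (log2 difference 3.04 ± 0.13 SE, adjusted p = 4.52e-06). Vegfb, a ligand of Flt1, had 45.5, 48.97 and 44.4 TPM in the LL/2 tumors and 14.6, 12.1 and 14.4 TPM in the KLN205 tumors (log2 difference 1.69 ± 0.10 SE, adjusted p = 1.63e-05). Fgf7, the keratinocyte growth factor made by mesenchymal cells, had 14.1, 18.8 and 17.2 TPM in the LL/2 tumors and 1.39, 2.5 and 1.64 TPM in the KLN205 tumors (log2 difference 2.65 ± 0.18 SE, adjusted p = 2.93e-05). LL/2 was several-fold higher for all 3 without overlap. The platelet-derived growth factor Pdgfa was higher in KLN205 (42.1, 39.3 and 46.7 TPM in the KLN205 tumors and 9.61, 10.9 and 11.6 TPM in the LL/2 tumors, log2 difference -1.90, adjusted p = 1.34e-05). Its relative Pdgfc was higher in LL/2 (18.8, 22.2 and 22.5 TPM in the LL/2 tumors and 2.49, 3.92 and 2.55 TPM in the KLN205 tumors, log2 difference 2.49, adjusted p = 2.42e-05). Angpt1, a ligand of the Tie2 receptor, had 5.14, 4.88 and 5.58 TPM in the LL/2 tumors and 1.83, 1.83 and 1.08 TPM in the KLN205 tumors (log2 difference 1.28, adjusted p = 0.000567). Of the 19 members, 17 were tested, 11 (64.7%) were higher in LL/2 and 2 (11.8%) in KLN205 (33.7% and 22.2% of all genes). Of the 17, 2 passed the filter through LL/2 alone. The counts were 8 and 3 after protein-coding rescaling (21.2% and 34.8% of all genes). Vegfc, Angpt2 and Fgf1 were the 3 called in LL/2 on the deposited TPM alone, with log2 differences of 0.62, 0.82 and 0.48, and these calls were lost in 4, 5 and 5 of the 6 fits that left out 1 tumor (highest adjusted p = 0.104, 0.129 and 0.156).

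Among the receptors that lenvatinib inhibits, the FGF receptors differed most. Fgfr1 had 175, 235 and 212 TPM in the LL/2 tumors and 19.6, 32.04 and 24.97 TPM in the KLN205 tumors (log2 difference 2.99 ± 0.19 SE, adjusted p = 2.1e-05). Pdgfra, the PDGF receptor of fibroblasts, had 33.2, 39.6 and 33.9 TPM in the LL/2 tumors and 7.02, 22.6 and 12.3 TPM in the KLN205 tumors (log2 difference 1.42 ± 0.35 SE, adjusted p = 0.0117). For both, KLN205 tumor 2 was the highest of its group. Fgfr2, an FGF receptor of epithelial cells, had 5.35, 2.59 and 2.87 TPM in the KLN205 tumors and 0.25, 0 and 0 TPM in the LL/2 tumors (log2 difference -2.05, adjusted p = 0.000556). Fgfr3, another, had 5.41, 1.47 and 2.59 TPM in the KLN205 tumors and 0.15, 0.04 and 0.08 TPM in the LL/2 tumors (log2 difference -1.82, adjusted p = 0.00351). The VEGF receptors Flt1, Kdr and Flt4 and the receptor Kit were not called, with adjusted p-values of 0.133, 0.848, 0.0565 and 0.476. Flt1 and Flt4 were called higher in KLN205 after both rescalings. Of the 10 receptors, 8 were tested, 2 (25%) were higher in LL/2 and 2 (25%) in KLN205 (33.7% and 22.2% of all genes). The KLN205 count ranged from 1 to 3 in the fits that left out 1 tumor. The 2 higher in KLN205, Fgfr2 and Fgfr3, passed the filter through that model alone, and Fgfr4 and Ret stayed under 0.55 TPM in all 6 tumors.

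Endothelial genes differed little between the treatment-naïve models. Of the 6 genes of the MVD gene score, which the study used as a measure of microvessel density, Eng had 31.3, 34.5 and 27.01 TPM in the LL/2 tumors and 13.4, 19.3 and 15.3 TPM in the KLN205 tumors (log2 difference 0.92 ± 0.15 SE, adjusted p = 0.00182) and the other 5 were not called. Cdh5, which encodes VE-cadherin, had 13.5, 19.3 and 21.7 TPM in the LL/2 tumors and 12.8, 15.6 and 12.2 TPM in the KLN205 tumors (adjusted p = 0.116). Kdr, the main VEGF receptor, had 2.97, 4.37 and 4.43 TPM in the LL/2 tumors and 2.8, 6 and 3.95 TPM in the KLN205 tumors. The models overlapped for both genes. Tek, the Tie2 receptor, had 0.7, 1.3 and 0.69 TPM in the LL/2 tumors and 1.09, 3.26 and 1.06 TPM in the KLN205 tumors (adjusted p = 0.236). Pcdh12 and Sparcl1 had log2 differences of 0.32 and -0.55 (adjusted p = 0.211 and 0.0625), and Sparcl1 was called higher in KLN205 after both rescalings. Pecam1, the marker CD31, had 12.7, 18.5 and 15.1 TPM in the LL/2 tumors and 16.1, 17.8 and 20.3 TPM in the KLN205 tumors (adjusted p = 0.251), with overlapping groups, and was called higher in KLN205 after both rescalings. Gpihbp1, the lipase anchor of capillaries, was the other endothelial gene called, with 10.6, 15.9 and 12.98 TPM in the LL/2 tumors and 5.01, 7.88 and 5.6 TPM in the KLN205 tumors (log2 difference 0.99 ± 0.20 SE, adjusted p = 0.00435). Thus 2 of 21 members (9.52%) were higher in LL/2 and 0 in KLN205 (33.7% and 22.2% of all genes), with a median log2 difference of 0.03, and after protein-coding rescaling 2 and 4. In bulk tumors, fewer cells of a type and less RNA per cell cannot be told apart, here and for every cell type below.

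Of 10 contractile and pericyte genes tested, 6 (60%) were higher in KLN205, 0 in LL/2 and 4 were not called (22.2% and 33.7% of all genes were called in these directions). Tagln, an actin-binding protein of contractile cells, had 43.1, 67.6 and 62.9 TPM in the KLN205 tumors and 2.02, 1.51 and 1.43 TPM in the LL/2 tumors (log2 difference -4.45 ± 0.19 SE, adjusted p = 3.74e-06). Cnn1, the smooth muscle calponin, had 4.2, 6.51 and 8.07 TPM in the KLN205 tumors and 0.37, 0.06 and 0.25 TPM in the LL/2 tumors (log2 difference -2.54, adjusted p = 0.000128). Acta2, smooth muscle actin, had 71.98, 145 and 121 TPM in the KLN205 tumors and 29.2, 29.96 and 31.4 TPM in the LL/2 tumors (log2 difference -1.81 ± 0.24 SE, adjusted p = 0.000606). Cspg4 and Notch3, markers of pericytes, had log2 differences of -1.85 and -1.79. Rgs5, a further pericyte marker, was not called (10.96, 13.1 and 13.4 TPM in the LL/2 tumors and 8.9, 16.1 and 11.03 TPM in the KLN205 tumors, adjusted p = 0.740). The median log2 difference was -1.73, and 2 of the 10 passed the filter through KLN205 alone.

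Fibroblast and matrix genes differed in both directions. Col1a1, a chain of type I collagen, had 341, 999 and 564 TPM in the KLN205 tumors and 48.7, 40.5 and 48.7 TPM in the LL/2 tumors (log2 difference -3.63 ± 0.35 SE, adjusted p = 0.000148). Col1a2, the other chain, had 168, 580.4 and 300.3 TPM in the KLN205 tumors and 17.4, 10.4 and 13.1 TPM in the LL/2 tumors (log2 difference -4.43 ± 0.42 SE, adjusted p = 0.000139). On the mean KLN205 was 13.8-fold higher for Col1a1 and 25.6-fold higher for Col1a2. Postn, the matrix protein periostin, had 97.7, 273 and 179.5 TPM in the KLN205 tumors and 12.9, 11.6 and 13.2 TPM in the LL/2 tumors (log2 difference -3.65, adjusted p = 0.000113). Thy1, a surface marker of fibroblasts, had 52.7, 97.03 and 74.6 TPM in the KLN205 tumors and 13.01, 15.3 and 11.5 TPM in the LL/2 tumors (log2 difference -2.38, adjusted p = 0.00012). KLN205 tumor 2 was the highest in all 4 and the groups did not overlap. Col3a1, the chain of type III collagen, went the other way, with 1072, 1198 and 1169 TPM in the LL/2 tumors and 143, 563 and 253 TPM in the KLN205 tumors (log2 difference 2.06 ± 0.44 SE, adjusted p = 0.00584). Dcn, the proteoglycan decorin, had 265, 294 and 277 TPM in the LL/2 tumors and 11.97, 48.5 and 15.3 TPM in the KLN205 tumors (log2 difference 3.67 ± 0.46 SE, adjusted p = 0.000476), and Dpt, the matrix protein dermatopontin, had a log2 difference of 4.10. In KLN205 the summed level of the 15 genes ranged from 1107 TPM in tumor 1 to 3293 TPM in tumor 2, while LL/2 held 1958 to 2125 TPM. Of the 15, 8 (53.3%) were higher in KLN205 and 5 (33.3%) in LL/2, where all genes gave 22.2% and 33.7%.

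Matrix metalloproteinases were divided too. Mmp13, a collagenase, had 51.4, 249.8 and 129 TPM in the KLN205 tumors and 2.27, 6.35 and 2.08 TPM in the LL/2 tumors (log2 difference -4.83 ± 0.59 SE, adjusted p = 0.000429), with tumor 2 the highest. Mmp10, a stromelysin, had 25.9, 37.3 and 34.9 TPM in the KLN205 tumors and 0.98, 3.59 and 1.37 TPM in the LL/2 tumors (log2 difference -3.58, adjusted p = 9.61e-05), and the gelatinases Mmp2 and Mmp9 had log2 differences of -3.20 and -1.85. Mmp3, another stromelysin, was higher in LL/2 (118, 217 and 151 TPM in the LL/2 tumors and 13.9, 43.6 and 16.8 TPM in the KLN205 tumors, log2 difference 2.79 ± 0.42 SE, adjusted p = 0.00120). Of 11 members of the list, inhibitors included, 5 (45.5%) were higher in each model, where all genes gave 33.7% for LL/2 and 22.2% for KLN205. After protein-coding rescaling 2 were higher in LL/2 and 5 in KLN205 (21.2% and 34.8% of all genes). For LL/2 the count was 2 without its tumor 3 and 3 without its tumor 2 or without KLN205 tumor 1 or 3.

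Most macrophage genes were higher in LL/2. Lyz2, the lysozyme of myeloid cells, had 1380.3, 1052 and 1372 TPM in the LL/2 tumors and 80.96, 238 and 135 TPM in the KLN205 tumors (log2 difference 3.18 ± 0.36 SE, adjusted p = 0.000294). Adgre1, which encodes the macrophage marker F4/80, had 24.03, 20.8 and 25.6 TPM in the LL/2 tumors and 6.6, 11.1 and 7.89 TPM in the KLN205 tumors (log2 difference 1.39 ± 0.18 SE, adjusted p = 0.000575). Csf1r, the receptor of colony-stimulating factor 1, had 62.3, 48.4 and 64.9 TPM in the LL/2 tumors and 21.04, 38.98 and 28.1 TPM in the KLN205 tumors (log2 difference 1.0025 ± 0.22 SE, adjusted p = 0.00715). The groups did not overlap for these 3 genes, and KLN205 tumor 2 was the highest of its group in each. Ccr2, the receptor of Ccl2 on monocytes, had 36.1, 22.99 and 34.9 TPM in the LL/2 tumors and 5.23, 8.89 and 6.15 TPM in the KLN205 tumors (log2 difference 2.06, adjusted p = 0.000278). Folr2 and Lyve1, genes of resident macrophages, had log2 differences of 2.38 and 2.88. Cd163, a scavenger receptor of macrophages, was higher in KLN205 (9.77, 6.09 and 7.01 TPM in the KLN205 tumors and 4.93, 2.69 and 3.81 TPM in the LL/2 tumors, log2 difference -0.85, adjusted p = 0.0152), and Apoe, the lipid carrier that macrophages secrete, was not called (adjusted p = 0.617). In all, 16 of 19 members (84.2%) were higher in LL/2 and 1 in KLN205 (33.7% and 22.2% of all genes). The median log2 difference was 1.17, and 2 of the 19 passed the filter through LL/2 alone. After protein-coding rescaling the counts were 13 and 1 (21.2% and 34.8% of all genes). The summed level was 2324 to 3169 TPM in LL/2 and 801.9 to 1785 TPM in KLN205.

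Neutrophil genes and the factors that recruit these cells reached at most 37.3 TPM in any of the 6 tumors. Csf3, which encodes the granulocyte growth factor G-CSF, had 6.56, 9.02 and 7.38 TPM in the KLN205 tumors and 0.45, 0.54 and 0.19 TPM in the LL/2 tumors (log2 difference -2.63 ± 0.17 SE, adjusted p = 2.7e-05). The neutrophil chemokine Cxcl5 had 13.1, 8.94 and 10.98 TPM in the KLN205 tumors and 2.37, 4.22 and 2.18 TPM in the LL/2 tumors (log2 difference -1.64, adjusted p = 0.000758). Ly6g, a surface marker of neutrophils, had 3.11, 8.89 and 8.24 TPM in the KLN205 tumors and 0.1, 0 and 0 TPM in the LL/2 tumors (log2 difference -2.81, adjusted p = 0.000423). The groups did not overlap for these 3 genes. The calprotectin genes S100a8 and S100a9 were not called, with adjusted p-values of 0.677 and 0.194. LL/2 tumor 2 stood above its group with 7.69, 25.6 and 5.22 TPM for S100a8. Of the 13 members, 12 were tested, 7 (58.3%) were higher in KLN205 and 0 in LL/2 (22.2% and 33.7% of all genes). Of the 12, 4 passed the filter through KLN205 alone.

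Lymphocyte genes were too low for most comparisons. Of 16 T cell genes, 10 were under the filter, among them the T cell receptor subunit Cd3e and the coreceptor Cd8a. Cd3e had 1.61, 0.68 and 0.61 TPM in the LL/2 tumors and 0.66, 0.89 and 0.74 TPM in the KLN205 tumors, and Cd8a had 0.92, 0.67 and 0.33 TPM in the LL/2 tumors and 0.03, 0.04 and 0.18 TPM in the KLN205 tumors. Of the 6 tested, Lag3 and Tigit, inhibitory receptors, were higher in KLN205 (log2 difference -1.38, adjusted p = 0.00114 and log2 difference -0.86, adjusted p = 0.00623), and Havcr2, which myeloid cells also carry, was higher in LL/2 (log2 difference 0.83, adjusted p = 0.00754). Of 12 cytotoxic and NK genes, 5 were tested. Nkg7, a granule protein, was higher in LL/2 (3.33, 0.9 and 1.93 TPM in the LL/2 tumors and 0, 0.61 and 0 TPM in the KLN205 tumors, log2 difference 1.30, adjusted p = 0.0175), a call lost without KLN205 tumor 1 or tumor 3 (highest adjusted p = 0.0556). Eomes, a T-box factor of NK cells and early embryos, was higher in KLN205 (7.34, 6.98 and 7.55 TPM in the KLN205 tumors and 0.38, 0.02 and 0.27 TPM in the LL/2 tumors, log2 difference -2.77, adjusted p = 1.64e-05). Of the 8 B and plasma cell genes, Ighm alone was tested (5.64, 2.68 and 3.24 TPM in the LL/2 tumors and 0.54, 1.44 and 1.03 TPM in the KLN205 tumors, log2 difference 1.25, adjusted p = 0.00688), and the B cell receptor subunit Cd79a was at 0.21 TPM or less in every tumor. Among 10 dendritic cell genes, Clec9a, a receptor of cross-presenting dendritic cells, was higher in LL/2 (7.33, 8.03 and 6.44 TPM in the LL/2 tumors and 0.29, 0.34 and 0.29 TPM in the KLN205 tumors, log2 difference 2.66 ± 0.14 SE, adjusted p = 1.06e-05), and Itgax, which encodes CD11c and which macrophages also carry, was higher in KLN205 (20.1, 30.6 and 29.4 TPM in the KLN205 tumors and 5.76, 8.71 and 5.3 TPM in the LL/2 tumors, log2 difference -1.87, adjusted p = 0.000353). Of the 6 dendritic cell genes tested, 3 were higher in LL/2 and 2 in KLN205 (33.7% and 22.2% of all genes), and after protein-coding rescaling 1 and 3. Clec9a and 1 other of the 6 passed the filter through LL/2 alone.

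Most genes of antigen presentation by MHC class I were higher in LL/2. B2m, the common light chain, had 740.4, 703 and 543 TPM in the LL/2 tumors and 104, 169 and 145 TPM in the KLN205 tumors (log2 difference 2.25 ± 0.20 SE, adjusted p = 8.99e-05). The heavy chain H2-K1 had 129, 87.8 and 89.2 TPM in the LL/2 tumors and 27.01, 31.2 and 30.5 TPM in the KLN205 tumors (log2 difference 1.73, adjusted p = 0.000118). The heavy chain H2-D1 had 335, 295 and 249 TPM in the LL/2 tumors and 59.5, 62.2 and 59.4 TPM in the KLN205 tumors (log2 difference 2.25, adjusted p = 8.26e-06). The groups did not overlap for any of the 3, and how reads of the different H2 haplotypes of the strains aligned was not tested. Of 12 members tested, 10 (83.3%) were higher in LL/2 and 0 in KLN205 (33.7% and 22.2% of all genes). The median log2 difference was 1.03, and the counts were 8 and 1 after protein-coding rescaling. Of the 8 MHC class II genes tested, 1 (12.5%) was higher in each model (33.7% of all genes for LL/2 and 22.2% for KLN205), with Cd74, the invariant chain, not called (333, 205 and 190.3 TPM in the LL/2 tumors and 189, 344 and 239 TPM in the KLN205 tumors, adjusted p = 0.810). Without KLN205 tumor 2, 4 were higher in LL/2.

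Of 20 interferon-stimulated genes, 6 (30%) were higher in LL/2 and 3 (15%) in KLN205, no larger shares than the 33.7% and 22.2% of all genes, and after protein-coding rescaling 4 and 4. The chemokine Cxcl10, which draws T cells, had 16.4, 20.1 and 8.77 TPM in the LL/2 tumors and 2.2, 1.85 and 2.12 TPM in the KLN205 tumors (log2 difference 2.33, adjusted p = 0.000359). Its relative Cxcl9 had 20.4, 14.9 and 2.06 TPM in the LL/2 tumors and 0.1, 1.74 and 0.39 TPM in the KLN205 tumors (log2 difference 2.65, adjusted p = 0.0181). LL/2 tumor 3 had the lowest Cxcl9 of its group, close to KLN205 tumor 2, and the call was lost in 4 of the 6 fits that left out 1 tumor (highest adjusted p = 0.0641). Usp18, which dampens interferon signaling, was higher in KLN205 (17.3, 15 and 18.5 TPM in the KLN205 tumors and 5.93, 4.31 and 3.56 TPM in the LL/2 tumors, log2 difference -1.70, adjusted p = 0.000179). Of the 18 genes of the T cell-inflamed profile, 16 were tested, 6 (37.5%) were higher in LL/2 and 3 (18.8%) in KLN205, near the shares of all genes, and 4 and 4 after protein-coding rescaling. Of the 16, 2 passed the filter through KLN205 alone and 2 through LL/2 alone. For LL/2 the count was 2 without LL/2 tumor 1 or KLN205 tumor 1 and 3 without KLN205 tumor 3. Ccl5, a chemokine of T cells, was the member of largest difference after Cxcl9 (22.5, 8.05 and 9.61 TPM in the LL/2 tumors and 2.47, 4.29 and 2.73 TPM in the KLN205 tumors, log2 difference 1.68, adjusted p = 0.00639). Cd274, which encodes PD-L1, was called on the deposited TPM alone (5.45, 6.35 and 4.25 TPM in the LL/2 tumors and 3.85, 3.06 and 3.73 TPM in the KLN205 tumors, log2 difference 0.47, adjusted p = 0.0396), and the call was lost in 5 of the 6 fits that left out 1 tumor (highest adjusted p = 0.124). The remaining members that were called are Psmb10 and Nkg7, higher in LL/2, H2-T23, higher in LL/2 on the deposited TPM alone and lost in 4 of those 6 fits, and Lag3, Tigit and Pdcd1lg2, higher in KLN205. The others tested were not called, though Cd27 was called higher in KLN205 after both rescalings, and Cd8a and Ido1 were not tested.

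Genes of immune suppression that other cell types share were led by Lgals1, which encodes galectin-1, with 1873, 1864 and 1926 TPM in the LL/2 tumors and 78.1, 166 and 114 TPM in the KLN205 tumors (log2 difference 4.04 ± 0.24 SE, adjusted p = 1.77e-05). Nos2, the inducible nitric oxide synthase, had 5.06, 13.1 and 7.19 TPM in the LL/2 tumors and 2.08, 1.05 and 1.07 TPM in the KLN205 tumors (log2 difference 1.91 ± 0.32 SE, adjusted p = 0.00210), and Nt5e, the ectoenzyme CD73, was higher in KLN205 (9.73, 12.5 and 15.2 TPM in the KLN205 tumors and 3.12, 5.09 and 3.76 TPM in the LL/2 tumors, log2 difference -1.43, adjusted p = 0.000846). Of 10 members tested, 5 (50%) were higher in LL/2 and 2 (20%) in KLN205 (33.7% and 22.2% of all genes), and after protein-coding rescaling 2 and 2.

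**Figure D3:**
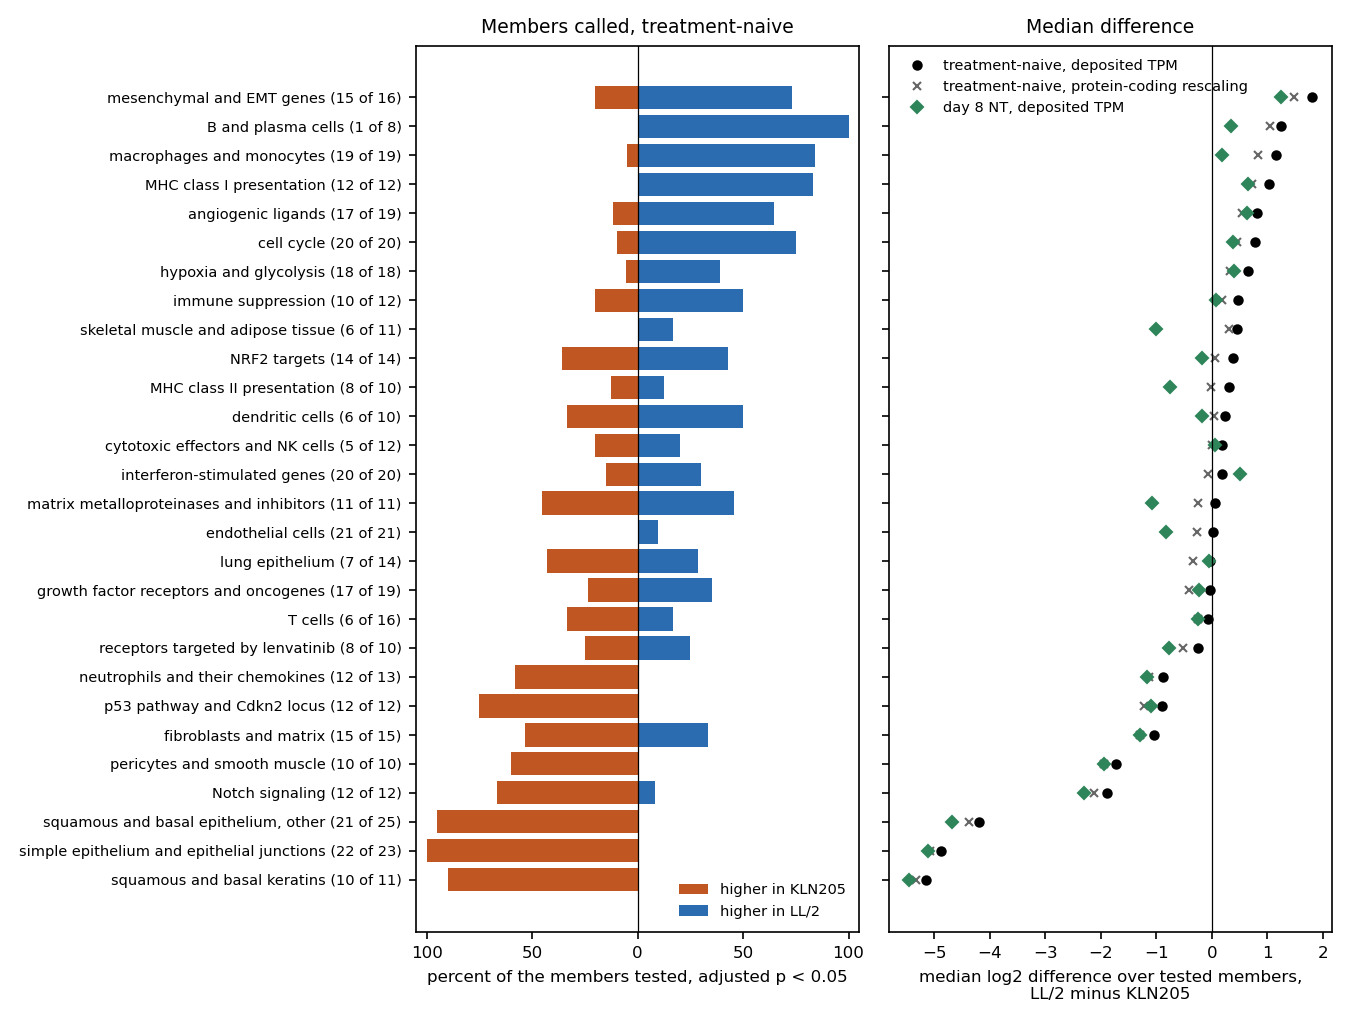
Left, percent of the tested members of each gene list that were higher in KLN205 (leftward bars) or in LL/2 (rightward bars) in the treatment-naïve tumors at an adjusted p under 0.05, with the number tested of all members beside each name. Right, the median log2 difference over tested members on the deposited TPM, after protein-coding rescaling, and on day 8, where the squamous and simple epithelial lists lie at -4 or lower in all 3 and the mesenchymal list has the highest median of the lists drawn in all 3 (the sex-linked list, the strain list and the T cell-inflamed profile are not drawn).

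The strain labels were checked with genes known to vary between inbred strains. Of 6 such genes 5 were tested, with 1 (20%) higher in LL/2, 2 (40%) in KLN205 and 2 not called (33.7% and 22.2% of all genes were called in these directions). The 2 higher in KLN205 passed the filter through that model alone. H2-Ea-ps, the class II gene that C57BL mice do not express, was listed at 42.4, 76.6 and 54.1 TPM in the KLN205 tumors and 0 TPM in each LL/2 tumor (adjusted p = 1.88e-06). Ifi202b, an interferon-inducible gene known to be silent in C57BL mice, was listed at 67.4, 55.4 and 64.9 TPM in the KLN205 tumors and 0 TPM in each LL/2 tumor (adjusted p = 1.12e-07). Both were thus at 0 in the tumors grown in C57BL/6JCrl mice and well above 0 in those grown in DBA/2NCrl mice. Nnt, the mitochondrial transhydrogenase that carries a deletion in C57BL/6J mice, had 24.5, 29.2 and 27.2 TPM in the LL/2 tumors and 5.85, 7.97 and 7.63 TPM in the KLN205 tumors (log2 difference 1.79 ± 0.13 SE, adjusted p = 4.36e-05), and a level per gene does not show whether the deletion was present in the tumor cells or the host. Xist, the RNA of the inactive X chromosome, had 111, 101 and 125 TPM in the LL/2 tumors and 22.1, 37.8 and 30.2 TPM in the KLN205 tumors (log2 difference 1.90 ± 0.19 SE, adjusted p = 0.00017), and the Y-linked genes Ddx3y, Kdm5d, Uty and Eif2s3y were at most 0.03 TPM in all 6 tumors.

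The pair was also set against the other models. By Pearson's r of mean log2(TPM + 1) over the same protein-coding genes, KLN205 was most like 4T1 (0.887) and LL/2 was in place 4 of 11 (0.823). LL/2 was most like BNL (0.910), and KLN205 was in place 10 of 11. Each lung model was also compared with the mean of the other 10 models in a limma fit of all 35 treatment-naïve tumors over 17542 genes. In LL/2, 3454 genes (19.7%) were higher and 5589 (31.9%) lower than in the other 10, and in KLN205, 3059 (17.4%) were higher and 7681 (43.8%) lower. For KLN205 the balance turned with the scaling, to 5320 higher and 4912 lower by protein-coding rescaling and 5311 and 4956 by the upper quartile. These contrasts share the 29 tumors of the other models. Of the genes with a log2 difference of at least 1 between the pair on the deposited TPM that were called the same way after both rescalings, with no limit on the size there, KLN205 had the highest mean of the 12 models for 924 of 2019 and LL/2 for 406 of 1743.

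Single genes show which model departed from the rest. Krt5 in KLN205 was 659 ± 199 TPM (SD, n = 3), and the highest mean among the other 10 models was 5.71 TPM in MC38. For Trp63 that value was 9.59 TPM in EMT6 and for Epcam 70.9 TPM in 4T1, both under KLN205. Cdkn2a had a mean of 0.21 TPM in LL/2, the lowest of the 12 models, and of 0.30, 0.31 and 0.55 TPM in 4T1, B16F10 and CT26, while KLN205 with 90.0 TPM was second to Renca with 135 TPM. Mdm2 (log2 difference 1.76, adjusted p = 1.42e-14 for KLN205), Jag1 (log2 difference 2.78, adjusted p = 1.03e-19) and Hras (log2 difference 0.65, adjusted p = 1.82e-07) were highest in KLN205. LL/2 had the highest mean for Peg10 (log2 difference 4.69, adjusted p = 9.3e-22), Fgfr1 (log2 difference 1.93, adjusted p = 5.3e-13), Vegfd (log2 difference 1.65, adjusted p = 8.16e-08) and Myc (log2 difference 1.92, adjusted p = 9.38e-15). For Vim and S100a4 KLN205 had the lowest mean of the 12 models (log2 difference -2.04, adjusted p = 4.17e-14 and log2 difference -4.45, adjusted p = 1.84e-19), while LL/2 was in place 5 for Vim and in place 2 for S100a4, where it was also above the other 10 (log2 difference 2.40, adjusted p = 2.91e-13). B2m was also lowest in KLN205 (log2 difference -3.09, adjusted p = 3.61e-14), and LL/2 was in place 9.

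**Figure D4:**
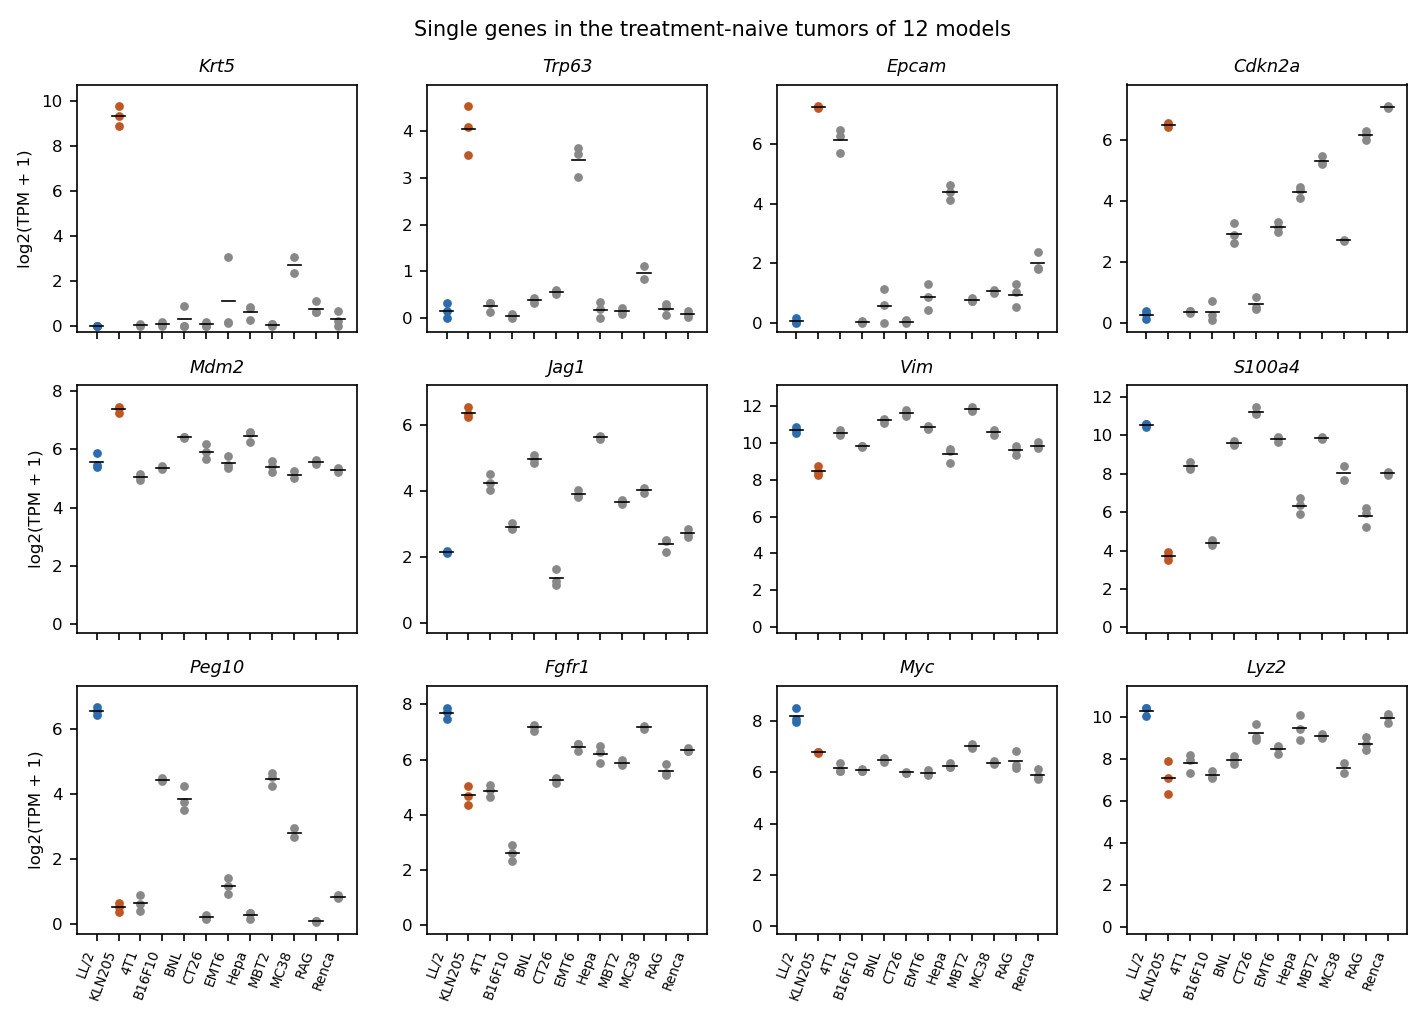
Expression of 12 genes as log2(TPM + 1) in the treatment-naïve tumors of 12 models, with 1 point per tumor and a bar at the mean of each model (LL/2 blue, KLN205 orange, other models gray). Krt5, Trp63 and Epcam have their highest mean in KLN205, Peg10, Fgfr1, Myc and Lyz2 in LL/2, and Vim and S100a4 have their lowest mean in KLN205.

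The day 8 NT tumors were used to see which differences recurred in other mice. Of 16847 genes tested on day 8, 4142 (24.6%) were higher in LL/2 and 5258 (31.2%) in KLN205, and after protein-coding rescaling 4394 (26.1%) and 5100 (30.3%). Of the genes with an adjusted p under 0.05 and a log2 difference of at least 1 in the treatment-naïve tumors, 1579 of the 1772 higher in LL/2 that were tested again and 1891 of the 1980 higher in KLN205 were called the same way, while 9 and 8 were called the other way. Krt5 was listed at 954, 859 and 904 TPM in the KLN205 tumors and 0 TPM in each LL/2 tumor on day 8, Trp63 at 17.4, 16.2 and 18.1 TPM in the KLN205 tumors and 0 TPM in each LL/2 tumor, and Cdkn2a at 123, 120.0 and 118 TPM in the KLN205 tumors and 0 TPM in each LL/2 tumor. S100a4 was at 1147, 1286 and 1121 TPM in the LL/2 tumors and 19.6, 12.2 and 25.4 TPM in the KLN205 tumors, Vim at 1799.8, 2307 and 1979 TPM in the LL/2 tumors and 419, 491 and 568 TPM in the KLN205 tumors, and Peg10 at 38.95, 37.2 and 38 TPM in the LL/2 tumors and 0.41, 0.41 and 0.56 TPM in the KLN205 tumors. The groups were apart for these 6 genes, which for Krt5, S100a4 and Peg10 adds nothing, since their direction on day 8 was a condition for naming them among the 15. Higher in KLN205 on day 8 were 10 of 10 keratins tested, 20 of 21 other squamous genes and 23 of 23 simple epithelial genes (31.2% of all genes). Most of these members passed the filter through KLN205 alone in the treatment-naïve tumors, so nothing is read from these counts either. Of 20 cell cycle genes, 8 were higher in LL/2 and 4 in KLN205 on day 8 (24.6% and 31.2% of all genes), against 15 and 2 before (33.7% and 22.2%). The change between the times, a test described below, was called under both scalings for 0 of the 20.

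The change of the difference between the models from one time to the other was tested gene by gene. On the deposited TPM, 294 of 16695 genes (1.76%) changed toward LL/2 and 2485 (14.9%) toward KLN205. After protein-coding rescaling the counts were 997 (5.96%) and 396 (2.37%) of 16729, so the overall direction depended on the scaling, and 685 genes were called the same way under both, 289 toward LL/2 and 396 toward KLN205. Among endothelial genes, 17 of 21 were higher in KLN205 on day 8 and 1 in LL/2 (31.2% and 24.6% of all genes), against 0 and 2 before (22.2% and 33.7%). The change itself was called under both scalings for 3 of the 21, all toward KLN205. Over all genes 396 were called this way, 2.37% of the 16729 tested after protein-coding rescaling. Gpihbp1 had 3.53, 8.75 and 5.15 TPM in the LL/2 tumors and 11.3, 9.1 and 13.9 TPM in the KLN205 tumors on day 8, the reverse of the treatment-naïve order, with a change in the log2 difference of -1.91 ± 0.38 SE, adjusted p = 0.00776. For Sparcl1 the change was -1.68 ± 0.28 SE, adjusted p = 0.00367, and on day 8 it had 6.9, 9.45 and 7.41 TPM in the LL/2 tumors and 38.9, 36.2 and 47.3 TPM in the KLN205 tumors. For Cdh5 and Kdr, called higher in KLN205 on day 8 alone, the log2 differences were -0.76 and -0.97.

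Of 10 pericyte and smooth muscle genes, 10 were higher in KLN205 on day 8 (31.2% of all genes). The change was called under both scalings for 3 of the 10, all toward KLN205 (2.37% of all genes). Acta2 had 7.4, 5.9 and 7.52 TPM in the LL/2 tumors and 134, 95.1 and 139.6 TPM in the KLN205 tumors, with a change of -2.14 ± 0.32 SE, adjusted p = 0.00237. Rgs5 had 5.89, 5.02 and 6.02 TPM in the LL/2 tumors and 19.4, 19.3 and 23.2 TPM in the KLN205 tumors, with a change of -1.79 ± 0.25 SE, adjusted p = 0.00182. For Acta2 the highest LL/2 tumor of day 8 stood below the lowest treatment-naïve one, and the KLN205 tumors of the 2 times overlapped. Of 19 macrophage genes, 8 were higher in LL/2 and 2 in KLN205 on day 8 (24.6% and 31.2% of all genes). The change was called under both scalings for 2 of the 19, Lyz2 and C1qb, both toward KLN205 (2.37% of all genes). Lyz2 had 437, 343 and 470.4 TPM in the LL/2 tumors and 235, 232 and 233 TPM in the KLN205 tumors, with a change of -2.36 ± 0.42 SE, adjusted p = 0.00478, and Lyz1 and Ptn changed by -2.76 and -3.14. Angpt1, higher in LL/2 before, was higher in KLN205 on day 8 (0.29, 0.26 and 0.14 TPM in the LL/2 tumors and 2.68, 3.74 and 3.26 TPM in the KLN205 tumors, change -3.05 ± 0.22 SE, adjusted p = 8.42e-05). Toward LL/2 moved Krt8 and Krt18, which in LL/2 were 78.1, 89.7 and 71.8 TPM and 91.3, 126 and 102 TPM on day 8 (changes of 3.0004 and 1.08), and Itgb4 and Itga6 (changes of 1.35 and 0.80). KLN205 stayed higher for all 4. What moved these genes between the times was not tested.

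**Figure D5:**
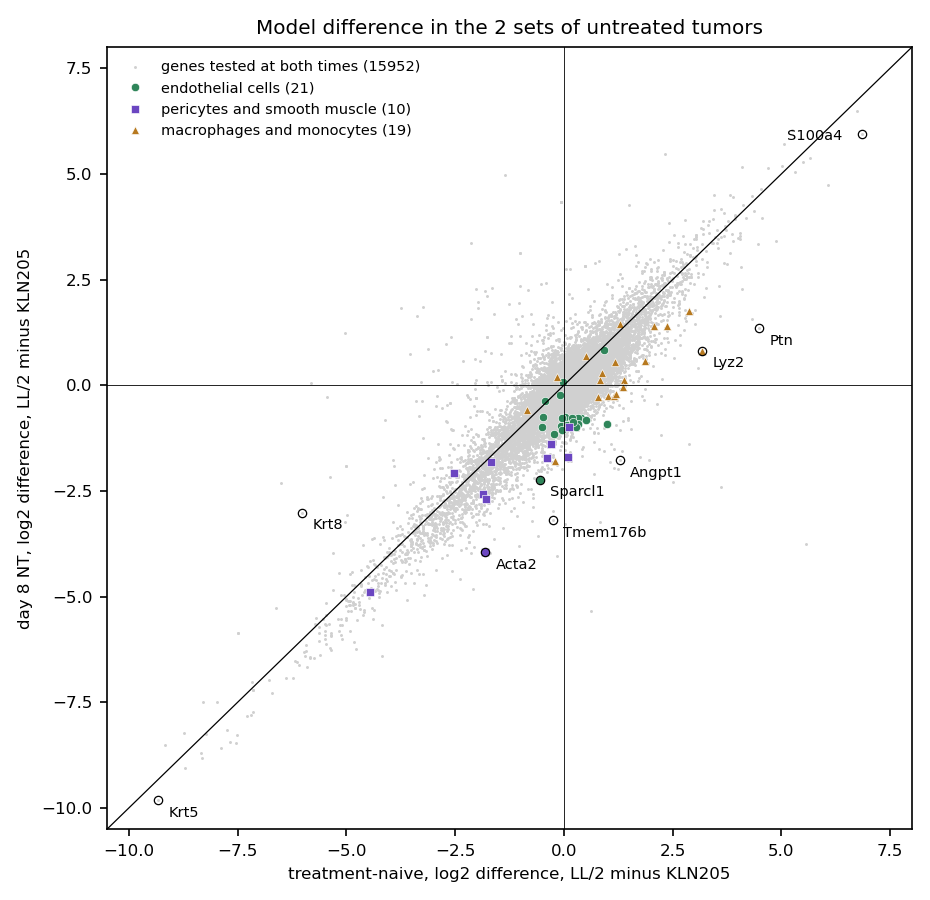
Log2 difference (LL/2 minus KLN205) in the day 8 NT tumors (vertical axis) against that in the treatment-naïve tumors (horizontal axis) for 15952 genes tested at both times, with the line of equal values. Of the pericyte and smooth muscle genes 9 of 10 and of the endothelial genes 19 of 21 lie under the line, against 69.4% of all 15952 genes, as do Lyz2, Ptn, Angpt1 and Tmem176b, and Krt8 lies above it.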

How the data were processed

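RNA from 107 mouse tumors was sequenced after removal of ribosomal RNA, of which 6 treatment-naïve and 6 day 8 NT tumors of LL/2 and KLN205 and the 29 treatment-naïve tumors of the other 10 models were used. The authors deposited TPM for 50686 genes in 1 table. Per the labels and the study's methods, reads were trimmed with Trimmomatic 0.36, aligned to mm10 with STAR 2.5.2b and quantified with RSEM 1.2.31 on an Ensembl 88 annotation. TPM holds no counts, so no count model was used, and n is the number of tumors, each from its own mouse.

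Values were tested as log2(TPM + 1) with limma 3.58.1 in R 4.3.3, with a mean-variance trend, for genes whose TPM averaged 1 or more over the fitted tumors, with Benjamini-Hochberg adjustment of p-values across the genes tested. A gene was called at an adjusted p under 0.05. Differences are LL/2 minus KLN205. The change between times was tested as an interaction, and each model was set against the mean of the other 10 in a fit of 35 tumors. For protein-coding rescaling, TPM was divided by the tumor's sum over 21764 genes annotated as protein-coding in GENCODE, and for the other rescaling by the upper quartile of genes above 0. On simulated data with 200 changed genes of 16366, the treatment-naïve fit recovered 69% of changes of 1 and 91% of changes of 2 on the log2 scale, and 6.43% of its calls were false. The same values were 61%, 91% and 10.6% for the day 8 fit of 16847 genes, and 52%, 87% and 4.14% for the change between times over 16695 genes. In the simulation far fewer genes changed than were called in the tumors. Its noise was independent between genes and no share of TPM shifted between the models, so these rates may not carry over to the tumors. Summaries were made in Python 3.11.15 with numpy 2.4.6 and pandas 2.3.3.

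The models compared, the gene lists and the tests were chosen with earlier results of these data known. Named genes are the 15 protein-coding genes with the largest called, non-overlapping difference in each direction that had the same direction on day 8, the defining and most significant members of each list, the MVD and T cell-inflamed genes, the 5 genes of highest TPM and the 5 with the most significant change between times. Alternatives were another constant (0.1), other filters (none, or a mean of at least 5), both rescalings, no trend, robust variances, a fit of all 35 tumors, the replicate number as a block, and leaving out each tumor. Genes with near-identical copies are called uncertain. Promoter sequences came from a RefSeq table in which some members have no entry. Some list members counted in the lists are not reported here by name.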

Additional observations from a re-analysis of the deposited data

Results flagged for a closer look

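The results below stood out because the difference between LL/2 and KLN205 itself changed from the treatment-naïve to the day 8 NT tumors, by the interaction in limma and under both the deposited and the protein-coding scaling. Values are changes in the log2 difference of LL/2 minus KLN205 on the deposited TPM, and a negative value is a move toward KLN205. Both Tmem176 genes, membrane channel proteins of myeloid cells, had among the smallest adjusted p of all genes. Tmem176b had 99.05, 96.3 and 102 TPM in the LL/2 tumors and 123, 110.2 and 122 TPM in the KLN205 tumors before, and 24.2, 18.6 and 17.7 TPM in the LL/2 tumors and 169, 202 and 204 TPM in the KLN205 tumors on day 8 (change -2.94 ± 0.16 SE, adjusted p = 8.41e-06). Tmem176a had 51.3, 53.1 and 50.7 TPM in the LL/2 tumors and 73.4, 78.6 and 83.4 TPM in the KLN205 tumors before, and 8.98, 9.5 and 6.58 TPM in the LL/2 tumors and 90.7, 112 and 127 TPM in the KLN205 tumors on day 8 (change -2.98 ± 0.19 SE, adjusted p = 2.89e-05). On the deposited TPM, both genes were lower on day 8 without overlap in LL/2, and both were higher without overlap in KLN205. The protein-coding share of the KLN205 tumors was also higher on day 8 (50.7% to 52.7% against 39.6% to 42.3%). The order of the times within KLN205 was not tested after rescaling.

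Further moves toward KLN205 were found for the secreted growth factors Ptn (-3.14) and Angpt1 (-3.05), for the myeloid genes Lyz1 (-2.76), Lyz2 (-2.36) and C1qb (-1.38), for the contractile and pericyte genes Acta2 (-2.14), Rgs5 (-1.79) and Notch3 (-0.90), for the endothelial genes Gpihbp1 (-1.91) and Sparcl1 (-1.68), for the interleukin 33 receptor Il1rl1 (-1.47), for the imprinted gene Peg10 (-1.32) and for Snai2 (-0.94). Moves toward LL/2 were found for the epithelial genes Krt8 (3.0004), Krt18 (1.08), Itgb4 (1.35), Itga6 (0.80) and Wfdc2 (0.66) and for the non-coding RNAs Rn7s1 (0.61) and Rn7s2 (0.97). KLN205 remained higher than LL/2 on day 8 for the 5 epithelial genes. For the genes of this paragraph, protein-coding rescaling made the moves toward KLN205 smaller and those toward LL/2 larger. Notch3, Snai2 and Rn7s1 then changed by -0.58, -0.60 and 0.97.

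For 3 small non-coding RNAs a whole group was listed at 0, and no size of change is given. Gm23966, a small nuclear RNA, was listed at 43.2, 32.9 and 68.5 TPM in the KLN205 tumors and 0 TPM in each LL/2 tumor before and at 0 in all 6 tumors on day 8 (adjusted p = 8.41e-06). Gm44323, a microRNA gene, was listed at 215, 111 and 348 TPM in the KLN205 tumors and 0 TPM in each LL/2 tumor before and at 0 in all 6 tumors on day 8 (adjusted p = 8.41e-06). Gm22435, a small nucleolar RNA, was listed at 11.97, 12.4 and 10.4 TPM in the LL/2 tumors on day 8 and at 0 in the other 9 tumors of the comparison (adjusted p = 8.41e-06). RNAs this short are poorly captured by libraries of long RNA, and what set their levels was not tested.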

How the results depend on the processing

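The balance of the directions depended on the scaling and the filter. In the treatment-naïve tumors, rescaling by the upper quartile gave 3538 genes higher in LL/2 and 5500 in KLN205, and protein-coding rescaling gave 3485 and 5714. With a log2 difference of at least 1 as well, LL/2 counts were 1108 and 1071 under the same rescalings. A mean of at least 5 TPM left 2147 genes higher in KLN205, 1026 of them by at least 1. For the change between times, the positive and negative counts were 688 and 493 by the upper quartile, 997 and 396 by protein-coding rescaling, and 138 and 904 with the replicate block. Against the other 10 models, genes lower in LL/2 numbered 3449 at a mean of at least 5. Genes higher in KLN205 numbered 1841 at a mean of at least 5, 5246 without a filter, 5311 by the upper quartile and 5320 by protein-coding rescaling, and genes lower numbered 4956 and 4912 under these rescalings.

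Between an LL/2 and a KLN205 tumor with the same replicate number, no correlation of deviations exceeded 0.05 in size, nor did any between tumors of different number. A batch shared by same-numbered tumors that acted on only part of the genes could not be seen this way. With the block, 5148 and 3419 genes were called in the treatment-naïve tumors, and 2393 and 3677 on day 8. Leaving out each tumor gave 4623 to 5167 genes higher in LL/2 and 3026 to 3524 in KLN205, 1692 to 1962 and 1883 to 2103 with a log2 difference of at least 1, 3455 to 4468 and 4432 to 5285 on day 8, 193 to 349 positive and 1639 to 2445 negative changes between times, and 2642 to 3476, 4605 to 5599, 2532 to 3065 and 6567 to 7681 against the other 10. The lowest positive change counts were 193 without KLN205 NT replicate 3 and 194 without LL/2 treatment-naïve replicate 3, and the lowest negative count was 1639 without KLN205 NT replicate 4. Of 199 named genes tested in the treatment-naïve tumors, 173 were called, 166 of these also under both rescalings, 167 with the block, 161 in every fit that left out a tumor and 157 under every alternative that could test them. Cdk1 turned from 0.27 to -0.029 by the upper quartile and -0.0522 by protein-coding rescaling, and Acta1 ranged from -1.15 without LL/2 tumor 1 to 1.15 without LL/2 tumor 2. Differences in TPM below the filter could not be judged, since TPM gives no depth.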

Other observations

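Of 18 glycolytic and hypoxia-induced genes, 7 were higher in LL/2 and 1 in KLN205 on the deposited TPM, where the shares over all genes were 33.7% and 22.2%, and 2 and 2 after protein-coding rescaling. Egln3, an oxygen-sensing hydroxylase that hypoxia induces, had 81.8, 146 and 117 TPM in the LL/2 tumors and 53.7, 16.6 and 28.5 TPM in the KLN205 tumors (log2 difference 1.89, adjusted p = 0.00630). P4ha1, a collagen hydroxylase, had 48.7, 76.9 and 57.9 TPM in the LL/2 tumors and 36.2, 18.9 and 32.4 TPM in the KLN205 tumors (log2 difference 1.07, adjusted p = 0.0113). LL/2 tumor 2 was the highest of its group and KLN205 tumor 2 the lowest of its group for both. The same held for the glucose transporter Slc2a1, which was not called (65.3, 156 and 111 TPM in the LL/2 tumors and 74.4, 46.9 and 65.05 TPM in the KLN205 tumors, adjusted p = 0.0777). Leaving out 1 tumor gave 4 to 10 hypoxia genes higher in LL/2, with 10 without KLN205 tumor 1, 4 without KLN205 tumor 3 and 4 without LL/2 tumor 2 or 3.

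Of 14 antioxidant genes controlled by Nrf2, 6 (42.9%) were higher in LL/2 and 5 (35.7%) in KLN205 on the deposited TPM (33.7% and 22.2% of all genes), and 5 and 6 after protein-coding rescaling. Gpx2 passed the filter through KLN205 alone. Hmox1, the heme oxygenase that macrophages also use, had 112, 160.1 and 165 TPM in the LL/2 tumors and 28.5, 22.5 and 28.6 TPM in the KLN205 tumors (log2 difference 2.40, adjusted p = 3.76e-05). Gpx2, a glutathione peroxidase of epithelial cells, was listed at 67.5, 31.1 and 43.5 TPM in the KLN205 tumors and 0 TPM in each LL/2 tumor (adjusted p = 5.79e-06). Gsta4, a glutathione transferase, had 142, 60.2 and 81.03 TPM in the KLN205 tumors and 3.03, 2.87 and 2.88 TPM in the LL/2 tumors (log2 difference -4.51, adjusted p = 2.11e-05). Slc7a11, the cystine transporter, had 10.03, 6.76 and 9.03 TPM in the KLN205 tumors and 1.39, 2.37 and 2.45 TPM in the LL/2 tumors (log2 difference -1.65, adjusted p = 0.000437).

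Skeletal muscle genes, which mark muscle of the flank taken along with a tumor, were at 0.21 TPM or less in LL/2 tumor 2 for Acta1, Ckm, Myh4 and Myl1. Acta1, skeletal muscle actin, had 28.6, 0.21 and 25.6 TPM in the LL/2 tumors and 11.98, 10.4 and 12.4 TPM in the KLN205 tumors (adjusted p = 0.810). Of 6 members tested 1 was higher in LL/2 (33.7% of all genes), the adipocyte and macrophage gene Fabp4 (9.32, 12.2 and 14.8 TPM in the LL/2 tumors and 3.97, 6.94 and 2.74 TPM in the KLN205 tumors, log2 difference 1.29, adjusted p = 0.00752), and 6 were higher in LL/2 without LL/2 tumor 2. What part muscle had in other genes was not tested.

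Mtap, the neighbor of Cdkn2a on chromosome 4, which was chosen after its values were seen, had a mean of 40.7 TPM in LL/2 and 24.9 TPM in KLN205 (log2 difference 0.69, adjusted p = 0.00149 by limma), in contrast to Cdkn2a and Cdkn2b.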
